A study of Bos taurus with 9 samples.

Results

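Solute carriers are the large superfamily of membrane proteins that move sugars, amino acids, ions, metals, nucleotides and vitamins across the plasma membrane and the membranes of organelles. Members were all bovine array probe sets whose single platform gene symbol began with SLC and a digit: 252 of 24016 probe sets, for 179 of 9155 named genes. Where a gene had several probe sets, the one of highest mean over all arrays was used. The genes were grouped by the substrate known for each family, with glucose, amino acids, zinc, sulfate and phosphate first. Of the 179, SLC4A1AP and SLC7A6OS are named after a binding partner or a neighbouring gene, are not known as transporters and were kept as a class of 2.

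The study measured 3 groups of 3 arrays, each group with 1 array for each of 3 calves aged 3 to 6 months. Chondrocytes came from articular cartilage, were embedded in agarose right after isolation and grew for 28 days in defined medium with 10 ng/mL TGF-beta3, a growth factor that induces cartilage formation. Day 28 MSCs were mesenchymal stem cells from the bone marrow of the same calves, held in the same gel and medium for the same 28 days. Day 0 MSCs were harvested straight after they had been embedded and had no culture in the gel. No MSC group was kept for 28 days without TGF-beta3, so time in culture and medium cannot be told apart, and chondrocytes differ from day 0 MSCs in cell type, time and medium together. RNA of a whole culture was measured, so fewer cells of a type and less RNA per cell cannot be told apart either. The labels were checked against 7 cartilage markers such as COL2A1 and ACAN. All 7 passed as higher in day 28 MSCs and in chondrocytes than in day 0 MSCs, and 0 of 7 passed between the day 28 groups. The markers thus could not check the labels of the day 28 groups against each other.

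Cartilage has no blood vessels, so nutrients reach its cells by diffusion through a matrix rich in sulfated sugar chains. Chondrocytes live largely on glucose and release lactate, and they need sulfate, sugar nucleotides and amino acids to make aggrecan and collagen. Zinc is a cofactor of matrix proteases and transcription factors, and phosphate is needed for energy metabolism and for mineral at the growth plate. The roles given below are those known mostly from human and mouse.

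Values are the deposited log2 levels, and a difference of 1 is a change of 2-fold. Each difference carries its limma standard error, from n = 3 arrays in every group, and a p adjusted by Benjamini-Hochberg over all 24016 probe sets. A gene was called, and is said to have risen or fallen, at an adjusted p under 0.05. A level compares samples for 1 probe set only, never 2 genes. Precision is limited by the number of arrays. Of the 179 genes, 47 had a mean level under 2.58, the 25th percentile of all probe sets, and are called dim below.

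In MSCs over 28 days with TGF-beta3, 57 of 179 solute carrier genes were called, 32 higher and 25 lower. That is 31.8% of them, against 34.5% of all named genes. The 32 higher make 17.9% of the members, against 13.5% of all genes, and the 25 lower make 14%, against 21.0% of all genes. The median difference of the members was -0.04, and that of all genes was -0.11. Changes of at least 2-fold made up 34 of the 57 calls, and the matching share over all genes was not counted. The largest rises were in SLC38A3, a glutamine transporter (4.22), SLC35G1 (3.29), SLC16A3, a lactate exporter (3.21), and SLC39A14, a zinc importer (2.79). The largest falls were in SLC1A3, a glutamate transporter (-2.09), SLC25A29, a mitochondrial carrier of basic amino acids (-2.08), SLC66A3 (-1.99) and SLC25A25, a mitochondrial carrier of ATP-magnesium and phosphate (-1.96).

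Between chondrocytes and day 28 MSCs, 29 of 179 genes were called (16.2%, against 13.2% of all genes). Chondrocytes were higher for 17 (9.5%, against 8.35% of all genes) and lower for 12 (6.7%, against 4.81% of all genes). The median difference was 0.01, and -0.02 over all genes. The glutamate transporter SLC1A3 (4.30) and the glutamine transporter SLC38A5 (3.05) stood furthest up, and the nucleoside transporter SLC29A2 (-1.67) and the phosphate importer SLC20A2 (-1.44) furthest down. These counts rest on few arrays. Without both arrays of low hybridisation controls, described below, 17 genes were called, 8 of them higher, and leaving out any 1 chondrocyte array left 16 to 18 calls. The split between higher and lower was 18 and 8 after the arrays had been centred on ribosomal proteins, and 13 and 15 after centring on the array median.

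Chondrocytes differed from day 0 MSCs in 60 of 179 genes (33.5%, against 36.0% of all genes). Chondrocytes were higher for 35 (19.6%, against 15.1%) and lower for 25 (14%, against 20.9%), with a median difference of 0.03 against -0.12 over all genes. The split was 45 higher and 18 lower with centring on ribosomal protein genes, and 30 and 31 with centring on the array median. This comparison shares arrays with both others, so its calls are not a separate repeat of theirs. The shares of all genes given for each comparison apply to the class and list counts below too. No class or list was tested against them.

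**Figure D1:**
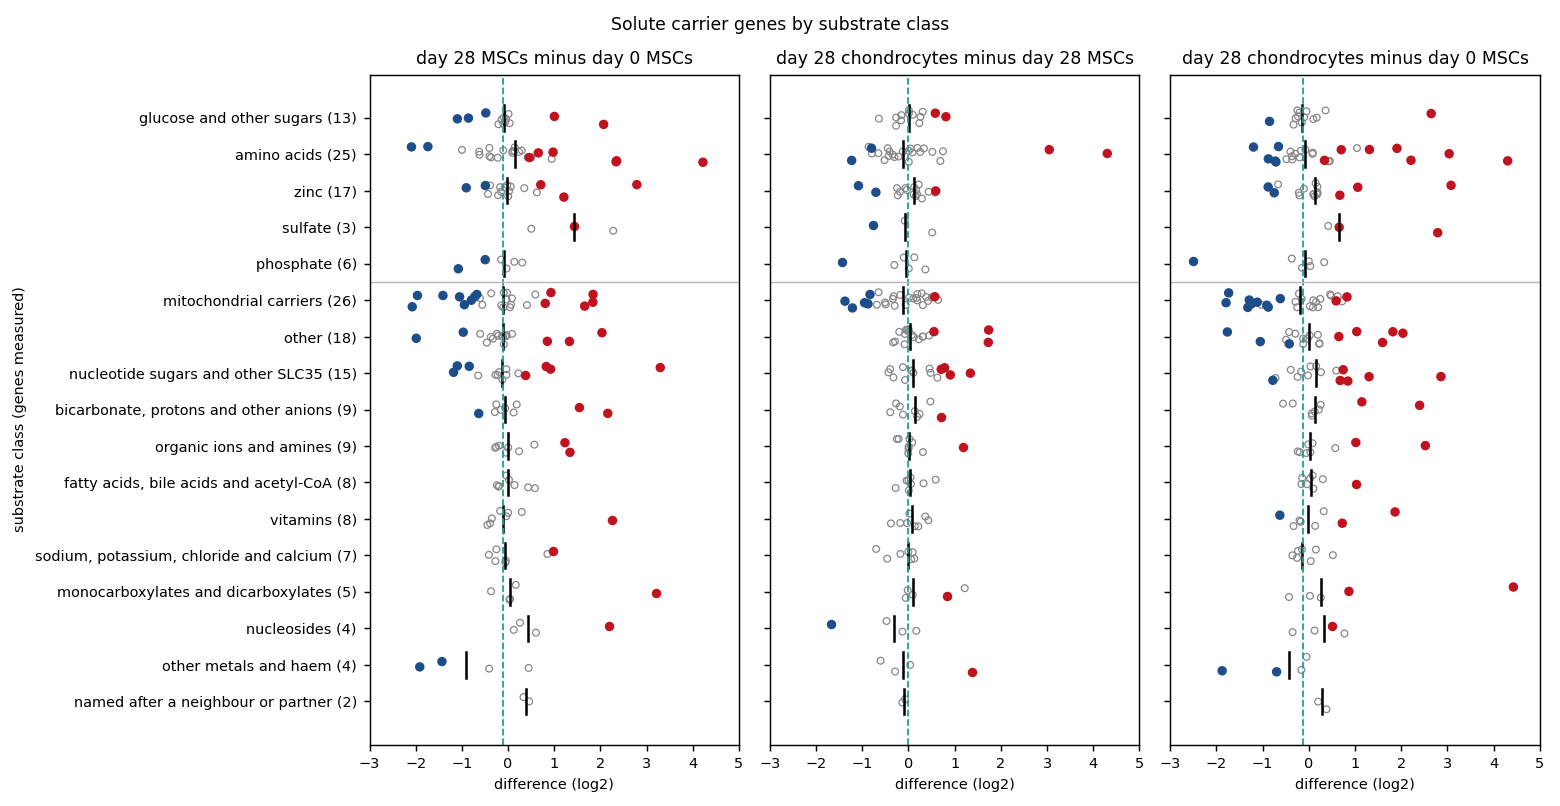
Differences on the log2 scale (horizontal axis) of the 179 solute carrier genes by substrate class (vertical axis, number of genes in brackets) in the 3 comparisons. Filled points are called genes, red for higher and blue for lower in the first-named group, open grey circles are genes not called, black bars are class medians and the dashed line is the median of all named genes. Most classes hold genes on both sides of 0, and single genes of the amino acid, zinc, sulfate, monocarboxylate and SLC35 classes reach 2.7 or more over day 0 MSCs.

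Glucose enters most cells through the facilitative SLC2 family, of which SLC2A1 is the carrier of basal uptake in many tissues. SLC2A1 measured 11.18, 11.12 and 11.21 in chondrocytes, 10.55, 10.55 and 10.69 in day 28 MSCs and 8.46, 8.48 and 8.64 in day 0 MSCs. All chondrocyte arrays lay above all day 28 MSC arrays, which lay above all day 0 MSC arrays. In MSCs it rose by 2.07 ± 0.12 over 28 days (4.19-fold, adjusted p = 7.94e-06), and chondrocytes were 2.65 ± 0.12 above day 0 MSCs (6.27-fold, adjusted p = 1.39e-06). Chondrocytes exceeded day 28 MSCs by 0.58 ± 0.12 (1.5-fold, adjusted p = 0.0158). That last call was lost without the 2 arrays of low hybridisation controls and without chondrocyte array 1 or 3, where the highest adjusted p was 0.0599.

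None of the other 12 sugar transporters was called higher in every comparison as SLC2A1 was. SLC2A6, a transporter of internal membranes, had 5.49, 5.45 and 5.53 in chondrocytes, 4.85, 4.35 and 4.84 in day 28 MSCs and 5.76, 5.41 and 6.15 in day 0 MSCs. It was lowest in day 28 MSCs: it fell by 1.10 ± 0.21 in MSCs (adjusted p = 0.00377) and was 0.81 ± 0.21 higher in chondrocytes than in day 28 MSCs (adjusted p = 0.0401). The second call was lost in 3 of the alternative settings and without chondrocyte array 1, 2 or 3, day 28 MSC array 1 or 2 or day 0 MSC array 1 (adjusted p up to 0.119). SLC2A8, another transporter of internal membranes, was 6.71, 6.89 and 6.43 in chondrocytes, 6.95, 6.50 and 6.55 in day 28 MSCs and 7.54, 7.49 and 7.55 in day 0 MSCs. Both day 28 groups lay below day 0 MSCs, with differences of -0.85 ± 0.17 in chondrocytes (adjusted p = 0.00476) and -0.86 ± 0.17 in day 28 MSCs (adjusted p = 0.00437). SLC2A4, the insulin-responsive carrier of fat and muscle, and SLC2A3, a high-affinity carrier, were called in MSCs over time, at 1.00 ± 0.29 (adjusted p = 0.0273) and -0.48 ± 0.15 (adjusted p = 0.0385). The SLC2A4 call was lost without array 1 or 2 of the day 28 MSCs or 1 or 3 of the day 0 MSCs (adjusted p up to 0.0923). It was also lost when only the 2 groups compared were fitted, and was absent from the calls under the filter at the 50th percentile of mean signal. The SLC2A3 call was lost without any 1 of 7 arrays (adjusted p up to 0.138), and the gene was dim. The 8 sugar transporters never called had differences from -0.33 to 0.31 in the 3 comparisons. They include SLC5A1, of which the other probe set stood 1.26 higher in chondrocytes than in day 28 MSCs (adjusted p = 0.0168) at a mean level of 2.09. For SLC5A10 too, only a probe set not used here was called, in both comparisons with day 0 MSCs.

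Enzymes downstream of glucose uptake were read from a list of glycolysis genes, of which 16 were measured. In chondrocytes against day 28 MSCs, 7 rose and 0 fell, with a median difference of 0.60. The smallest p belonged to PFKL, a subunit of phosphofructokinase (1.46 ± 0.16, adjusted p = 0.000604), and to the hexokinase HK1 (1.22 ± 0.17, adjusted p = 0.00206). In MSCs over time 2 rose and 3 fell, with a median of -0.26, and ALDOC, an aldolase, rose by 1.4 ± 0.26 (adjusted p = 0.00295). Chondrocytes against day 0 MSCs had 8 higher and 1 lower, with a median of 0.42.

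Lactate, the end product of glycolysis, leaves cells through monocarboxylate transporters. SLC16A3, the exporter of strongly glycolytic cells, had 10.90, 10.71 and 10.84 in chondrocytes, 9.30, 9.45 and 10.05 in day 28 MSCs and 6.11, 5.62 and 7.44 in day 0 MSCs. The 3 groups did not overlap, and day 0 MSCs had the widest spread. It rose by 3.21 ± 0.41 in MSCs (9.26-fold, adjusted p = 0.00042), and chondrocytes were 4.43 ± 0.41 above day 0 MSCs (adjusted p = 7.47e-05). The difference of chondrocytes from day 28 MSCs, 1.22 (95% interval 0.30 to 2.14), did not pass (adjusted p = 0.0958). These values come from 1 of 3 probe sets: the other two, at mean levels of 3.96 and 2.42, were called in no comparison, with differences from -0.04 to 0.58. SLC16A1, which carries lactate and pyruvate both ways, measured 9.35, 9.46 and 9.47 in chondrocytes, 8.42, 8.79 and 8.56 in day 28 MSCs and 8.90, 8.67 and 8.12 in day 0 MSCs. Chondrocytes were higher than day 28 MSCs by 0.84 ± 0.20 (adjusted p = 0.0298) and than day 0 MSCs by 0.87 ± 0.20 (adjusted p = 0.0103). The call against day 28 MSCs was lost without the 2 arrays of low controls, without any 1 chondrocyte array and without day 28 MSC array 1 or 3 (adjusted p up to 0.131). Of 5 partner genes, MPC2, a subunit of the mitochondrial pyruvate carrier, fell by 1.5 ± 0.19 in MSCs (adjusted p = 0.000374), LDHB also fell, and 0 rose. The same count of 0 higher and 2 lower held in chondrocytes against day 0 MSCs, and 0 of 5 passed between the day 28 groups.

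**Figure D2:**
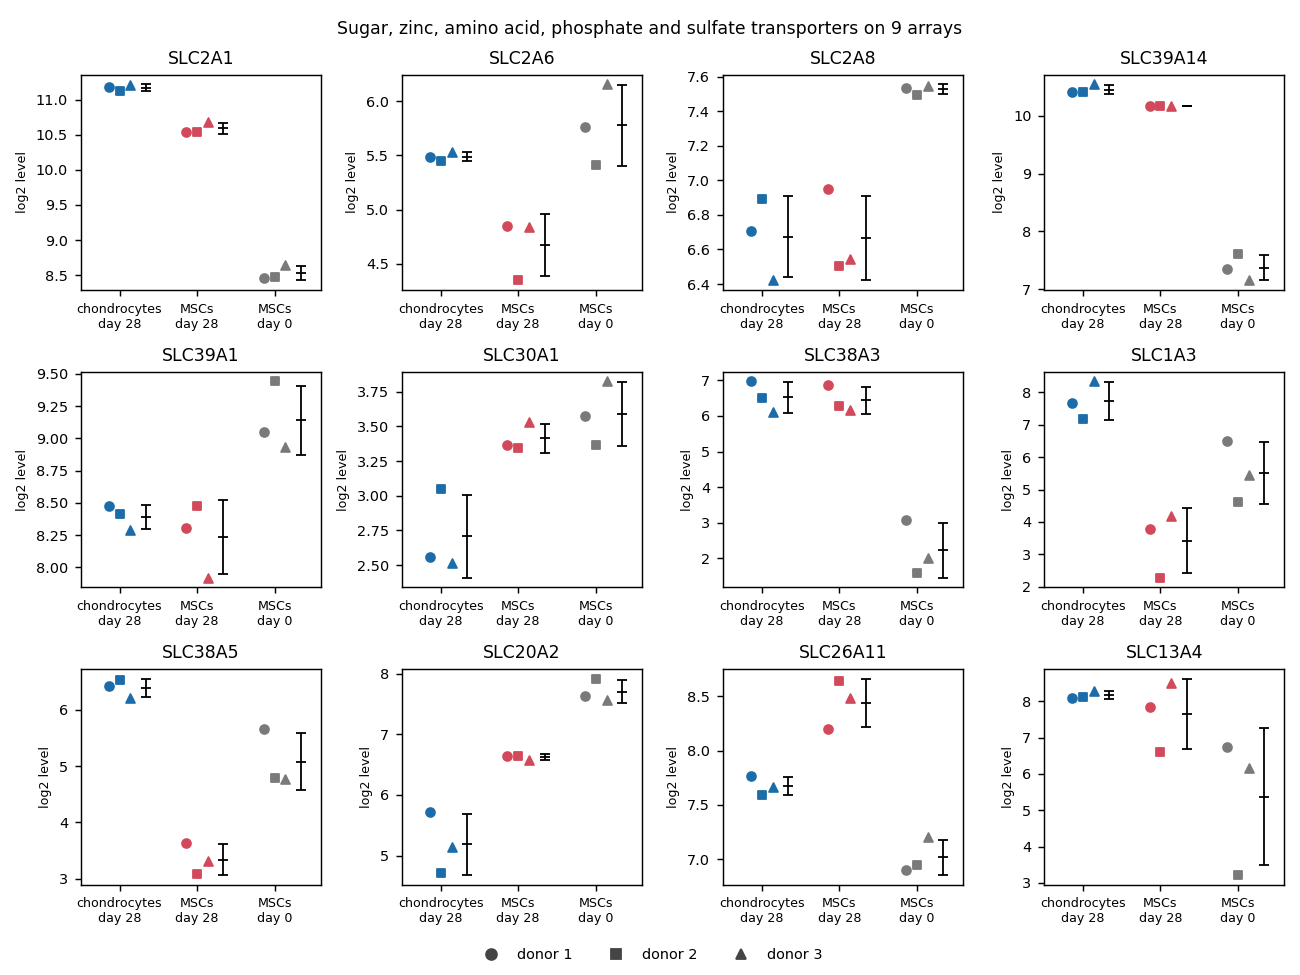
Log2 level (vertical axes, scaled to each gene) of 12 transporters of sugars, zinc, amino acids, phosphate and sulfate on the 9 arrays, by group and by donor (marker shape). Black bars are the mean and SD of 3 arrays. SLC2A1 and SLC39A14 are high in both day 28 groups, SLC1A3 and SLC38A5 are high in chondrocytes and low in day 28 MSCs, and SLC20A2 is lowest in chondrocytes.

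Zinc is brought into the cytosol by the SLC39 family and taken out of it by the SLC30 family. Of 13 SLC39 genes, 3 rose and 2 fell in MSCs over 28 days, and of 4 SLC30 genes 0 were called. In chondrocytes against day 28 MSCs 1 SLC39 gene was higher and 1 lower, and against day 0 MSCs 3 were higher and 1 lower, with 1 SLC30 gene lower in each. Of the 3 zinc transporters called between the day 28 groups, 0 passed without the 2 arrays of low controls, and the count was 1 without any 1 chondrocyte array, day 28 MSC array 1 or 2 or day 0 MSC array 1. SLC39A14, which also carries iron and manganese, had 10.41, 10.40 and 10.54 in chondrocytes, 10.16 on all 3 day 28 MSC arrays and 7.34, 7.60 and 7.17 in day 0 MSCs. Both day 28 groups were far above day 0 MSCs. The rise in MSCs was 2.79 ± 0.14 (6.90-fold, adjusted p = 3.67e-06), and chondrocytes exceeded day 0 MSCs by 3.08 ± 0.14 (8.45-fold, adjusted p = 1.39e-06). Chondrocytes and day 28 MSCs differed by 0.29 (95% interval -0.03 to 0.61), which did not pass (adjusted p = 0.25). The 3 deposited day 28 MSC values were identical in every digit, as for 148 of 24016 probe sets in that group (0.616%). The spread of SLC39A14 there is thus not known from its own arrays. The fit pooled that group with a spread of 0, so the standard errors, interval and p of this gene may be too small.

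The other called zinc importers moved less and in different directions. SLC39A1, an importer of the plasma membrane, was 8.47, 8.41 and 8.29 in chondrocytes, 8.31, 8.47 and 7.92 in day 28 MSCs and 9.05, 9.44 and 8.93 in day 0 MSCs. It was lower in both day 28 groups than in day 0 MSCs, with differences of -0.75 ± 0.19 in chondrocytes (adjusted p = 0.0145) and -0.91 ± 0.19 in MSCs (adjusted p = 0.00568). SLC39A9, a transporter found at the Golgi and plasma membranes, rose by 0.71 ± 0.12 in MSCs (adjusted p = 0.00245) and stood 0.67 ± 0.12 higher in chondrocytes than in day 0 MSCs (adjusted p = 0.00337), and its second probe set was called the same way in both. SLC39A2 rose in MSCs by 1.21 ± 0.21 (adjusted p = 0.00228) and was lower in chondrocytes than in day 28 MSCs (-1.08 ± 0.21, adjusted p = 0.0118). Its levels of 2.54, 2.07 and 2.41 in chondrocytes, 2.98, 3.77 and 3.52 in day 28 MSCs and 2.26, 2.23 and 2.17 in day 0 MSCs were all near the low end of the scale, and the call between the day 28 groups was lost without the 2 arrays of low controls and without chondrocyte array 2 (adjusted p up to 0.0641). SLC39A11 differed by less than 0.6 in each comparison, and each of its 2 calls was lost in 3 of the alternative settings and without any 1 of several arrays (adjusted p up to 0.0931 and 0.117). SLC39A4, the zinc importer of the intestine, was 1.06 ± 0.21 higher in chondrocytes than in day 0 MSCs (adjusted p = 0.0051).

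The zinc exporter of the plasma membrane, SLC30A1, measured 2.56, 3.05 and 2.51 in chondrocytes, 3.36, 3.34 and 3.53 in day 28 MSCs and 3.58, 3.36 and 3.82 in day 0 MSCs. Chondrocytes lay below both MSC groups, with differences of -0.71 ± 0.18 against day 28 MSCs (adjusted p = 0.0415) and -0.88 ± 0.18 against day 0 MSCs (adjusted p = 0.00619). The first of these was lost with the donor as a block (adjusted p = 0.0558) and in 5 other settings, and without any 1 of 6 arrays (adjusted p up to 0.205). The other 10 zinc transporters were called in no comparison, with differences from -0.67 to 0.58. Of 4 zinc-binding and zinc-response genes measured, the metallothioneins MT1A, MT2A and MT3 and the zinc-sensing factor MTF1, 0 were called in any comparison, with medians of 0.49, -0.11 and 0.33 in the order of comparisons above.

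Amino acid transporters formed the largest of the 5 main classes, with 25 genes. In MSCs 6 rose and 2 fell, chondrocytes were higher than day 28 MSCs for 2 and lower for 2, and chondrocytes were higher than day 0 MSCs for 7 and lower for 5. Without day 28 MSC array 3, the day 28 groups had 8 calls, 5 of them lower, and without any other single array except chondrocyte array 2 they had 1 lower. The count lower than day 0 MSCs was 2 or 3 without array 1 or 3 of the chondrocytes or any 1 day 0 MSC array, and the count that fell in MSCs was 1 without day 28 MSC array 2 or day 0 MSC array 1. SLC38A3, which carries glutamine, histidine and asparagine, measured 6.97, 6.51 and 6.10 in chondrocytes, 6.87, 6.28 and 6.17 in day 28 MSCs and 3.07, 1.59 and 2.00 in day 0 MSCs. It was high on all 6 day 28 arrays, with a rise of 4.22 ± 0.38 in MSCs (18.6-fold, adjusted p = 7.49e-05) and 4.30 ± 0.38 in chondrocytes over day 0 MSCs (19.8-fold, adjusted p = 6.06e-05). Chondrocytes and day 28 MSCs differed by 0.09 (95% interval -0.77 to 0.94, adjusted p = 0.933). Its 2 other probe sets were called higher than day 0 MSCs as well, by 1.61 and 1.62 in day 28 MSCs, so the direction held and the size depended on the probe set.

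SLC38A5, a close relative that also carries serine and glycine, showed another order. It had 6.42, 6.54 and 6.21 in chondrocytes, 3.63, 3.09 and 3.31 in day 28 MSCs and 5.66, 4.79 and 4.78 in day 0 MSCs. It fell by 1.74 ± 0.25 in MSCs (adjusted p = 0.000882), and chondrocytes exceeded day 28 MSCs by 3.05 ± 0.25 (8.27-fold, adjusted p = 0.000142) and day 0 MSCs by 1.31 ± 0.25 (adjusted p = 0.00397). SLC1A3, which takes up glutamate and aspartate, followed the same order of groups, with 7.68, 7.16 and 8.33 in chondrocytes, 3.80, 2.28 and 4.18 in day 28 MSCs and 6.50, 4.6 and 5.43 in day 0 MSCs. Chondrocytes exceeded day 28 MSCs by 4.30 ± 0.58 (19.8-fold, adjusted p = 0.00201), the widest gap of any solute carrier between these groups, and it was called in every alternative run. Its fall in MSCs (-2.09 ± 0.58, adjusted p = 0.0233) was lost without day 28 MSC array 2 or day 0 MSC array 1 or 3 (adjusted p up to 0.0824). The difference of chondrocytes from day 0 MSCs (2.21 ± 0.58, adjusted p = 0.0182) was lost without the 2 arrays of low controls and without array 1 or 3 of the chondrocytes or 2 or 3 of the day 0 MSCs (adjusted p up to 0.0661).

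Of the SLC6 carriers of amino acids, SLC6A20 and SLC6A14 were high in both day 28 groups. SLC6A20, which carries proline and other imino acids, had 5.34, 4.91 and 5.21 in chondrocytes, 3.95, 4.29 and 5.15 in day 28 MSCs and 1.92, 2.12 and 2.31 in day 0 MSCs. SLC6A14, with a broad range of neutral and basic amino acids, had 4.90, 5.15 and 5.61 in chondrocytes, 5.95, 5.13 and 5.87 in day 28 MSCs and 3.33, 3.64 and 2.96 in day 0 MSCs. For both genes the day 28 groups overlapped each other and lay above day 0 MSCs. SLC6A20 rose by 2.35 ± 0.28 in MSCs (adjusted p = 0.000316) and was 3.04 ± 0.28 above day 0 MSCs in chondrocytes (adjusted p = 7.86e-05). The corresponding values of SLC6A14 were 2.34 ± 0.28 (adjusted p = 0.000294) and 1.91 ± 0.28 (adjusted p = 0.000887). The glycine transporter SLC6A9 was lower in chondrocytes than in both MSC groups, with differences of -0.80 ± 0.20 (adjusted p = 0.0359) and -0.66 ± 0.20 (adjusted p = 0.0348), and both calls were lost in several settings and without any 1 of several arrays (adjusted p up to 0.206 and 0.121).

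Large neutral amino acids enter through light chains of the SLC7 family paired with the heavy chain SLC3A2. SLC3A2 measured 8.48, 8.55 and 7.92 in chondrocytes, 9.53, 9.25 and 8.55 in day 28 MSCs and 9.56, 9.54 and 9.44 in day 0 MSCs. Chondrocytes were below day 0 MSCs (-1.20 ± 0.26, adjusted p = 0.00734). Against day 28 MSCs the difference of -0.79 ± 0.26 did not pass (adjusted p = 0.091), and passed with the donor as a block (adjusted p = 0.0298). The light chain SLC7A7 had 6.21, 5.62 and 6.31 in chondrocytes, 7.06, 7.40 and 7.37 in day 28 MSCs and 6.81, 6.93 and 6.58 in day 0 MSCs. It was lowest in chondrocytes, with differences of -1.23 ± 0.20 against day 28 MSCs (adjusted p = 0.00541) and -0.73 ± 0.20 against day 0 MSCs (adjusted p = 0.0236). The light chain SLC7A5 was 0.97 ± 0.31 higher in day 28 than in day 0 MSCs (adjusted p = 0.0409), a call lost without any 1 of 7 arrays (adjusted p up to 0.12). The SLC7A7 call against day 0 MSCs was lost without chondrocyte array 2 or day 0 MSC array 1 or 2 (adjusted p up to 0.0772).

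Some further amino acid carriers passed in at least 1 comparison with smaller differences. SLC1A4, a carrier of serine and alanine, was lower in chondrocytes than in day 0 MSCs (-0.88 ± 0.21, adjusted p = 0.0112), and its second probe set was called lower there too. The lysosomal glutamine transporter SLC38A7 was lower in chondrocytes than in day 0 MSCs (-0.71 ± 0.19, adjusted p = 0.0181). That call was lost without array 1 or 3 of either group (adjusted p up to 0.0724). SLC43A1, which carries large neutral amino acids on its own, rose by 0.65 ± 0.13 in MSCs (adjusted p = 0.00475) and was 0.70 ± 0.13 higher in chondrocytes than in day 0 MSCs (adjusted p = 0.0034). SLC38A2, a carrier that many cells raise on amino acid shortage, rose in MSCs by 0.46 ± 0.11 (adjusted p = 0.0122), and its difference of 0.34 in chondrocytes against day 0 MSCs was lost with the donor as a block (adjusted p = 0.0702). The 12 amino acid carriers never called include SLC1A5, the main glutamine carrier of many cells, and had differences from -1.0 to 1.04. With the donor as a block, SLC66A1, SLC7A1 and SLC43A2 also passed in MSCs over time (adjusted p = 0.00884, 0.0468 and 0.0449).

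Genes that respond to amino acid shortage, of which 14 of a list were measured, were read beside these carriers. In chondrocytes against day 28 MSCs 0 rose and 4 fell, with a median of -0.62, and SESN2, a leucine sensor, fell by 2.04 ± 0.26 (adjusted p = 0.00154). Against day 0 MSCs 2 were higher in chondrocytes and 6 lower, with a median of -0.51. In MSCs over time 3 rose and 1 fell, with a median of -0.09.

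**Figure D3:**
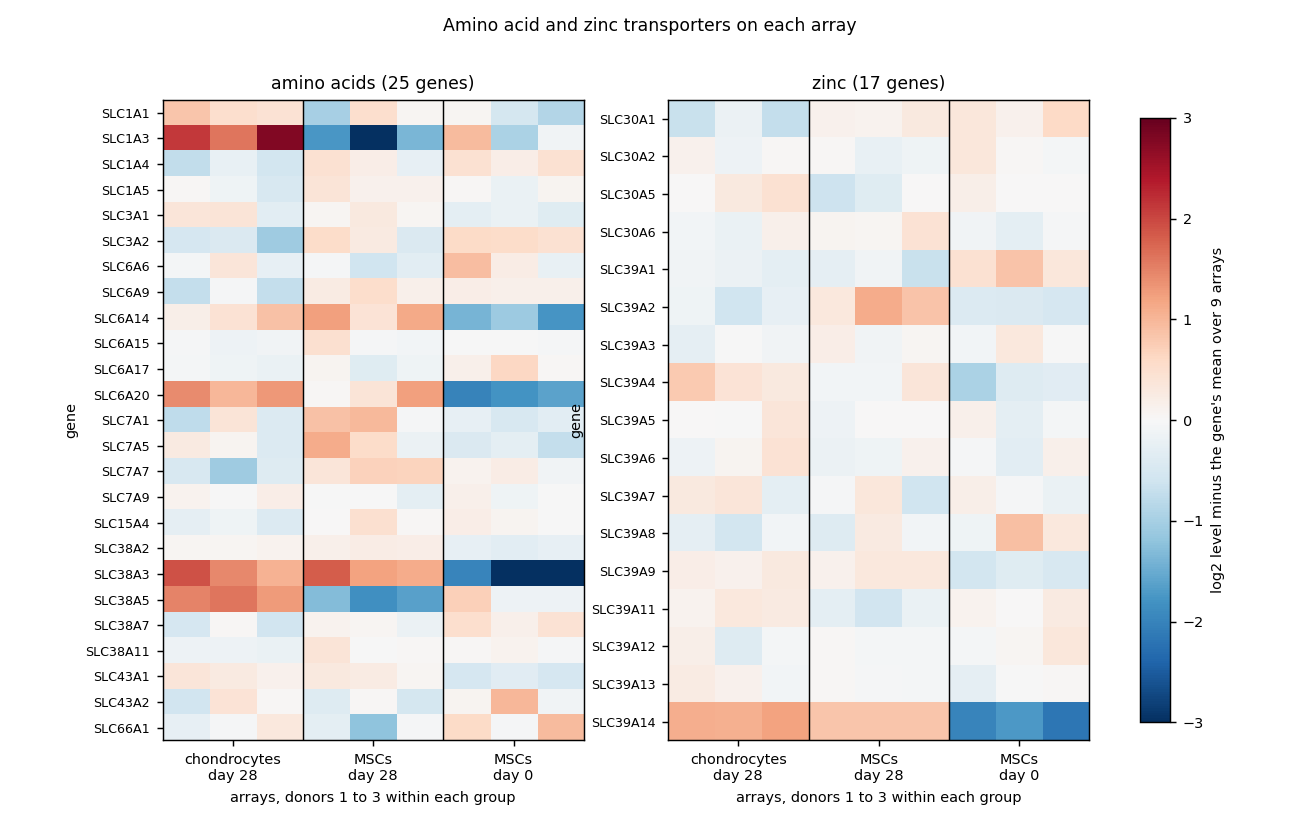
Log2 level minus the gene's own mean over 9 arrays (colour, red above and blue below the mean, cut at 3 either way) for all 25 amino acid and all 17 zinc transporters (rows), with 3 arrays in each group (columns). Rows of strong colour are few: SLC38A3, SLC6A14, SLC6A20 and SLC39A14 set day 0 MSCs apart, and SLC1A3 and SLC38A5 set chondrocytes against day 28 MSCs.

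Sulfate is needed to sulfate the sugar chains of aggrecan, and 3 sulfate-related carriers were measured. SLC26A2, the sulfate transporter mutated in human chondrodysplasias, was not analysed here. SLC26A11, a sulfate transporter of internal and plasma membranes, had 7.76, 7.59 and 7.67 in chondrocytes, 8.20, 8.64 and 8.48 in day 28 MSCs and 6.90, 6.95 and 7.20 in day 0 MSCs. It was highest in day 28 MSCs and the groups did not overlap. The rise in MSCs was 1.42 ± 0.15 (2.68-fold, adjusted p = 0.000183), chondrocytes were below day 28 MSCs (-0.77 ± 0.15, adjusted p = 0.0143), and 0.66 ± 0.15 above day 0 MSCs (adjusted p = 0.0109). The call between the day 28 groups was lost without the 2 arrays of low controls and without chondrocyte array 2 (adjusted p up to 0.078).

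SLC13A4, a sodium-coupled sulfate importer, measured 8.09, 8.10 and 8.29 in chondrocytes, 7.83, 6.60 and 8.51 in day 28 MSCs and 6.74, 3.22 and 6.15 in day 0 MSCs. Array 2 of the day 0 MSCs lay far below the others. Chondrocytes were 2.79 ± 0.82 above day 0 MSCs (adjusted p = 0.0287), a call lost without the 2 arrays of low controls and without any 1 chondrocyte array (adjusted p up to 0.0756). The rise in MSCs of 2.28 (95% interval 0.43 to 4.12) did not pass (adjusted p = 0.0641). It passed with the donor as a block (adjusted p = 0.0183) and under both filters on low signal. A second probe set of SLC13A4 was called in both comparisons, at 1.92 and 1.5, and its last probe set in neither. SLC35B2, which carries activated sulfate into the Golgi, had differences of 0.50, -0.08 and 0.42 that did not pass (adjusted p = 0.0505, 0.844 and 0.0911). In 5 alternative settings, both filters on low signal among them, the first of these passed, with adjusted p down to 0.037, and in 2 settings the last did, down to 0.0297. Of 11 genes for sulfate activation and sulfate transfer, 3 rose and 2 fell in MSCs, 4 were higher and 0 lower in chondrocytes than in day 28 MSCs, and 5 were higher and 0 lower in chondrocytes than in day 0 MSCs, with medians of -0.14, 0.43 and 0.64. PAPSS1, which makes activated sulfate, passed in all 3, at 0.82 ± 0.19, 0.78 ± 0.19 and 1.59 ± 0.19 (adjusted p = 0.0105, 0.0332 and 0.000317).

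Phosphate enters cells mainly through the sodium-coupled carriers SLC20A1 and SLC20A2. SLC20A2 measured 5.71, 4.71 and 5.14 in chondrocytes, 6.65, 6.65 and 6.58 in day 28 MSCs and 7.63, 7.92 and 7.56 in day 0 MSCs. The groups did not overlap, and chondrocytes were lowest. It fell by 1.08 ± 0.23 in MSCs (2.11-fold lower, adjusted p = 0.00702), and chondrocytes were lower than day 28 MSCs (-1.44 ± 0.23, adjusted p = 0.00487) and than day 0 MSCs (-2.52 ± 0.23, 5.72-fold lower, adjusted p = 7.67e-05). SLC20A1 had 11.90, 11.86 and 11.94 in chondrocytes, 11.57, 11.38 and 11.65 in day 28 MSCs and 11.36, 11.57 and 11.77 in day 0 MSCs, and was called in no comparison. Its difference of chondrocytes from day 28 MSCs was 0.37 (95% interval 0.04 to 0.69, adjusted p = 0.153). The mitochondrial phosphate carrier SLC25A3 fell by 0.50 ± 0.13 in MSCs (adjusted p = 0.0206), a call lost without the 2 arrays of low controls and without day 28 MSC array 3 or day 0 MSC array 1 or 3 (adjusted p up to 0.0823). Among 6 genes for phosphate and pyrophosphate handling, 2 rose and 2 fell in MSCs. Chondrocytes were higher than day 28 MSCs for 2 and lower for 0, and higher than day 0 MSCs for 4 and lower for 0. In MSCs ENPP1, which makes pyrophosphate, rose by 2.48 ± 0.35 (adjusted p = 0.000726), and ALPL, which splits it, by 5.95 ± 0.84 (adjusted p = 0.000765). PPA1 and NT5E fell there, with differences of -1.35 ± 0.19 (adjusted p = 0.000774) and -0.81 ± 0.20 (adjusted p = 0.0123). Both were higher in chondrocytes than in day 28 MSCs (adjusted p = 0.0153 and 0.0176). ANKH, which exports ATP and pyrophosphate, was 1.11 ± 0.35 higher in chondrocytes than in day 0 MSCs (adjusted p = 0.0386).

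Carriers of the mitochondrial inner membrane, the SLC25 family, were the largest class, with 26 genes apart from SLC25A3. In MSCs 5 rose and 8 fell (19.2% and 30.8%, against 13.5% and 21.0% of all genes). Chondrocytes were higher than day 28 MSCs for 1 and lower for 5 (3.85% and 19.2%, against 8.35% and 4.81% of all genes). They were higher than day 0 MSCs for 2 and lower for 9 (7.69% and 34.6%, against 15.1% and 20.9% of all genes). The mitoferrins SLC25A37 and SLC25A28 bring iron into mitochondria. SLC25A28 had 7.69, 7.21 and 7.75 in chondrocytes, 8.45, 9.17 and 9.14 in day 28 MSCs and 7.0, 7.35 and 6.91 in day 0 MSCs. SLC25A37 had 9.39, 9.45 and 9.33 in chondrocytes, 10.03, 10.33 and 10.32 in day 28 MSCs and 8.66, 8.31 and 8.73 in day 0 MSCs. Both were highest in day 28 MSCs, with rises over day 0 MSCs of 1.83 ± 0.24 (adjusted p = 0.000485) and 1.66 ± 0.15 (adjusted p = 8.65e-05). Chondrocytes were below day 28 MSCs, with differences of -1.38 ± 0.24 (adjusted p = 0.00683) and -0.83 ± 0.15 (adjusted p = 0.00948), and the second of these was lost without the 2 arrays of low controls (adjusted p = 0.0676). SLC25A38, a glycine carrier needed for haem synthesis, rose in MSCs by 0.80 ± 0.19 (adjusted p = 0.0113). SLC25A34, a dim gene, rose by 1.84 ± 0.29 in MSCs (adjusted p = 0.0015), and its other probe set was not called there. Chondrocytes were below day 28 MSCs for SLC25A34 (-1.21 ± 0.29, adjusted p = 0.0306) and SLC25A40 (-0.88 ± 0.22, adjusted p = 0.0359), and above them for the citrate carrier SLC25A1 (0.57 ± 0.15, adjusted p = 0.0468). Each of these 3 calls was lost without the 2 arrays of low controls and without any 1 chondrocyte array, with adjusted p up to 0.105, 0.15 and 0.138.

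The falling mitochondrial carriers included SLC25A29, at 4.51, 4.51 and 4.23 in chondrocytes, 4.47, 4.23 and 3.70 in day 28 MSCs and 6.50, 6.06 and 6.08 in day 0 MSCs. It was low on all 6 day 28 arrays, with differences of -1.79 ± 0.22 in chondrocytes (adjusted p = 0.000343) and -2.08 ± 0.22 in MSCs (adjusted p = 0.000157). SLC25A4, the ADP-ATP carrier of heart and muscle, had 9.66, 9.55 and 9.67 in chondrocytes, 10.27, 10.00 and 10.10 in day 28 MSCs and 11.20, 10.77 and 10.78 in day 0 MSCs. SLC25A51, the NAD carrier, had 5.77, 6.04 and 6.14 in chondrocytes, 7.14, 6.45 and 6.42 in day 28 MSCs and 7.84, 7.65 and 7.67 in day 0 MSCs. For both the groups did not overlap, with chondrocytes lowest, but chondrocytes against day 28 MSCs did not pass, at -0.49 (adjusted p = 0.0796) and -0.69 (adjusted p = 0.0714). They fell in MSCs by 0.80 ± 0.15 (adjusted p = 0.00408) and 1.05 ± 0.21 (adjusted p = 0.00449), and chondrocytes were below day 0 MSCs, with differences of -1.29 ± 0.15 (adjusted p = 0.000312) and -1.74 ± 0.21 (adjusted p = 0.00031). SLC25A26, which carries S-adenosylmethionine, was lower in chondrocytes than in day 28 MSCs (-0.95 ± 0.15, adjusted p = 0.00437), with no change called in MSCs. It was also called between chondrocytes and day 0 MSCs, and its probe sets did not all give the same call in either comparison. SLC25A25 and SLC25A33, a pyrimidine nucleotide carrier, were lower in chondrocytes than in day 0 MSCs, with differences of -1.32 ± 0.26 (adjusted p = 0.00476) and -1.25 ± 0.29 (adjusted p = 0.01). The probe sets of SLC25A25 did not all give the same call there or in MSCs over time. SLC25A21, a carrier of oxodicarboxylates, fell in MSCs by 1.41 ± 0.37 (adjusted p = 0.018), a call lost without the 2 arrays of low controls and without day 28 MSC array 2 (adjusted p up to 0.0672). SLC25A20, which carries acylcarnitines, rose in MSCs by 0.93 ± 0.13 (adjusted p = 0.000726), as did SLC22A5, the carnitine importer, by 1.23 ± 0.16 (adjusted p = 0.000417). The second probe set of SLC25A20 was also called, and that of SLC22A5 was not, at -0.67 (adjusted p = 0.0567).

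Nucleotide sugars for glycan synthesis are carried into the Golgi by the SLC35 family, which also holds members of unknown substrate, 15 genes in all. Chondrocytes were higher than day 28 MSCs for 4 and lower for 0 (26.7% and 0%, against 8.35% and 4.81% of all genes). They were higher than day 0 MSCs for 5 and lower for 1 (33.3% and 6.67%, against 15.1% and 20.9% of all genes). In MSCs over time 4 rose and 3 fell (26.7% and 20%, against 13.5% and 21.0% of all genes). SLC35A2, the UDP-galactose transporter, had 7.99, 8.04 and 8.06 in chondrocytes, 6.98, 7.26 and 7.12 in day 28 MSCs and 7.20, 7.37 and 7.48 in day 0 MSCs. Chondrocytes exceeded both MSC groups, by 0.91 ± 0.13 at day 28 (adjusted p = 0.00298) and 0.68 ± 0.13 at day 0 (adjusted p = 0.00446). The probe sets of SLC35A2 did not all give this call in either comparison. SLC35D2, which carries UDP-N-acetylglucosamine, had 7.19, 7.13 and 7.21 in chondrocytes, 5.68, 5.47 and 6.37 in day 28 MSCs and 7.04, 7.12 and 6.89 in day 0 MSCs. Only day 28 MSCs were low: it fell by 1.18 ± 0.21 in MSCs (adjusted p = 0.00292), and chondrocytes were 1.34 ± 0.21 above day 28 MSCs (adjusted p = 0.0046). SLC35A3, another UDP-N-acetylglucosamine transporter, was 1.30 ± 0.22 higher in chondrocytes than in day 0 MSCs (adjusted p = 0.00201). SLC35G1 had 7.22, 7.09 and 7.93 in chondrocytes, 7.95, 7.61 and 7.98 in day 28 MSCs and 3.89, 4.84 and 4.93 in day 0 MSCs. It rose by 3.29 ± 0.31 in MSCs (9.81-fold, adjusted p = 9.08e-05), and its second probe set rose there too, by 2.5. The probe sets differed elsewhere: chondrocytes exceeded day 0 MSCs by 2.86 ± 0.31 with the one used (adjusted p = 0.000181) and by 0.78 with the second (adjusted p = 0.0866). Against day 28 MSCs the one used did not pass (-0.43, adjusted p = 0.461) and the second was lower in chondrocytes (-1.73, adjusted p = 0.00758). SLC35F6 and SLC35E2B fell in MSCs by 1.10 ± 0.17 (adjusted p = 0.00129) and 0.84 ± 0.17 (adjusted p = 0.0046). The probe sets of SLC35E2B did not all give the same call there.

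**Figure D4:**
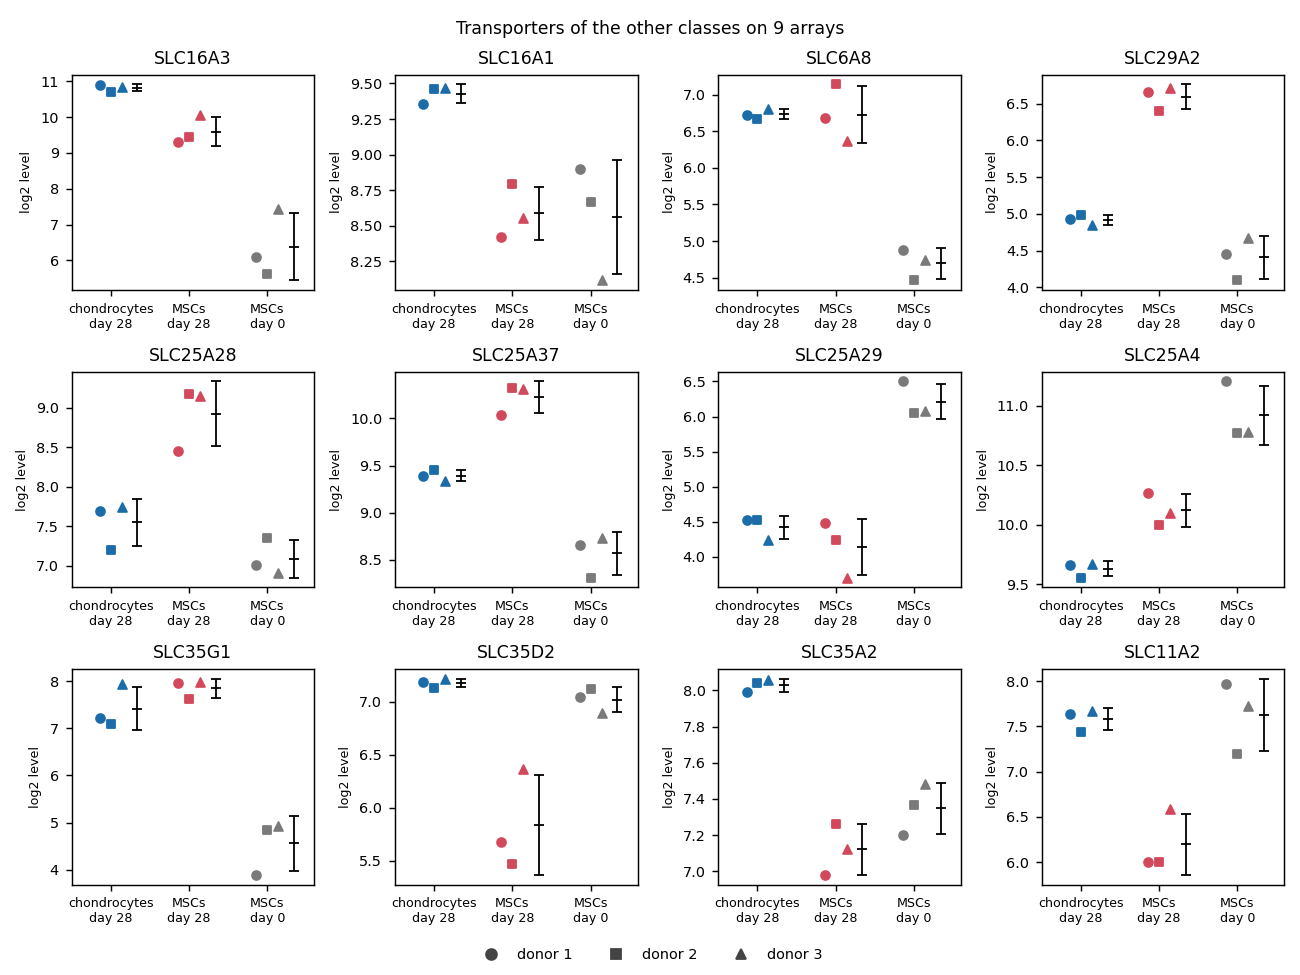
Log2 level (vertical axes, scaled to each gene) of 12 transporters of lactate, creatine, nucleosides, iron, mitochondrial substrates and nucleotide sugars on the 9 arrays, by group and by donor (marker shape). Black bars are the mean and SD of 3 arrays. SLC29A2, SLC25A28 and SLC25A37 peak in day 28 MSCs, SLC35D2 and SLC11A2 are low there, and SLC25A4 is highest in day 0 MSCs.

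Of 4 carriers of iron and copper, 2 were called lower in MSCs over time, 1 higher in chondrocytes than in day 28 MSCs and 2 lower in chondrocytes than in day 0 MSCs. SLC11A2, which imports ferrous iron, had 7.63, 7.44 and 7.67 in chondrocytes, 6.01, 6.00 and 6.58 in day 28 MSCs and 7.97, 7.19 and 7.72 in day 0 MSCs. It was low in day 28 MSCs, with a fall of 1.43 ± 0.23 over time (adjusted p = 0.00154) and a difference of 1.39 ± 0.23 for chondrocytes above day 28 MSCs (adjusted p = 0.00569). SLC31A2, a copper transporter relative, had 6.07, 6.00 and 5.53 in chondrocytes, 5.58, 6.07 and 5.84 in day 28 MSCs and 7.56, 7.95 and 7.72 in day 0 MSCs. Both day 28 groups were lower than day 0 MSCs, with differences of -1.88 ± 0.20 in chondrocytes (adjusted p = 0.000148) and -1.91 ± 0.20 in MSCs (adjusted p = 0.000135). Of 4 nucleoside transporters, SLC29A2 was called in all 3 comparisons and the other 3 in none, with differences from -0.48 to 0.77. SLC29A2, an equilibrative nucleoside transporter, had 4.93, 4.99 and 4.85 in chondrocytes, 6.66, 6.4 and 6.72 in day 28 MSCs and 4.45, 4.10 and 4.68 in day 0 MSCs. It was high in day 28 MSCs, with a rise of 2.19 ± 0.17 (4.55-fold, adjusted p = 3.47e-05), and chondrocytes were below them (-1.67 ± 0.17, adjusted p = 0.000423). Its difference of 0.51 ± 0.17 for chondrocytes above day 0 MSCs (adjusted p = 0.0478) was lost in 4 of the alternative settings and without any 1 of 7 arrays (adjusted p up to 0.144).

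Several carriers of other substrates were higher in both day 28 groups than in day 0 MSCs. The creatine importer SLC6A8 had 6.73, 6.67 and 6.80 in chondrocytes, 6.68, 7.14 and 6.36 in day 28 MSCs and 4.88, 4.46 and 4.75 in day 0 MSCs. It was higher by 2.04 ± 0.20 in chondrocytes (adjusted p = 0.000113) and 2.03 ± 0.20 in MSCs (adjusted p = 0.000119), and its second probe set, at 0.95 and 0.82, did not pass. The sodium bicarbonate cotransporter SLC4A7, which helps to regulate pH, had 10.26, 9.81 and 10.19 in chondrocytes, 9.47, 10.06 and 10.00 in day 28 MSCs and 7.73, 7.63 and 7.70 in day 0 MSCs. Its differences from day 0 MSCs were 2.40 ± 0.19 in chondrocytes (5.28-fold, adjusted p = 3.17e-05) and 2.16 ± 0.19 in MSCs (4.46-fold, adjusted p = 6.37e-05). The lysosomal protein SLC46A3 rose by 2.25 ± 0.36 in MSCs (adjusted p = 0.00162) and was 1.87 ± 0.36 higher in chondrocytes than in day 0 MSCs (adjusted p = 0.00441). SLC22A17, a receptor for the iron-binding protein lipocalin 2, had 8.43, 8.62 and 8.65 in chondrocytes, 7.07, 7.63 and 7.45 in day 28 MSCs and 5.57, 6.39 and 6.17 in day 0 MSCs. It passed in all 3 comparisons, at 1.34 ± 0.23, 1.18 ± 0.23 and 2.52 ± 0.23 (adjusted p = 0.00201, 0.0113 and 6.71e-05), of which the second was lost without the 2 arrays of low controls (adjusted p = 0.0625). SLC8B1, the mitochondrial sodium-calcium exchanger, rose by 0.98 ± 0.23 in MSCs (adjusted p = 0.0109).

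Some carriers were higher in chondrocytes than in both MSC groups. SLC17A9, which loads ATP into vesicles, had 7.55, 7.64 and 7.57 in chondrocytes, 6.05, 5.08 and 6.42 in day 28 MSCs and 6.36, 5.29 and 5.65 in day 0 MSCs, and was higher in chondrocytes by 1.74 ± 0.35 (adjusted p = 0.0147) than in day 28 MSCs and 1.82 ± 0.35 (adjusted p = 0.00424) than in day 0 MSCs. The first of these was lost without chondrocyte array 2 (adjusted p = 0.0565). The noradrenaline transporter SLC6A2 had 5.23, 4.97 and 4.93 in chondrocytes, 3.05, 3.69 and 3.21 in day 28 MSCs and 4.27, 2.86 and 3.22 in day 0 MSCs. Its differences were 1.73 ± 0.33 (adjusted p = 0.0114) and 1.60 ± 0.33 (adjusted p = 0.00608), from 1 of 3 probe sets, and the first was lost without the 2 arrays of low controls (adjusted p = 0.0624). In the opposite direction SLC66A3 was lower in both day 28 groups than in day 0 MSCs, with differences of -1.76 ± 0.30 in chondrocytes (adjusted p = 0.00218) and -1.99 ± 0.30 in MSCs (adjusted p = 0.00112). SLC46A2, placed in the class of vitamin carriers by its family only, was lower in chondrocytes than in day 0 MSCs (-0.63 ± 0.16, adjusted p = 0.0149). The fatty acid transporter SLC27A1 was 1.02 ± 0.29 higher in chondrocytes than in day 0 MSCs (adjusted p = 0.027), a call lost without any 1 chondrocyte array or day 0 MSC array 2 or 3 (adjusted p up to 0.0932). The SLC46A2 call was lost without day 0 MSC array 1 and in 2 settings (also up to 0.0932). The anion exchanger SLC4A2 fell by 0.64 ± 0.15 in MSCs (adjusted p = 0.0111).

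Probe sets of 1 gene did not always give the same call. Of the 51 genes with several, 15 were called in MSCs over time by the probe set used, and for 6 of them all probe sets were called the same way. The corresponding counts were 6 and 0 between chondrocytes and day 28 MSCs, and 24 and 5 between chondrocytes and day 0 MSCs. Beside the genes said above to differ, probe sets differed in call for SLC38A2 in both comparisons with day 0 MSCs. They also differed for SLC6A9 and SLC25A34 between the day 28 groups and for SLC27A1 in chondrocytes against day 0 MSCs. Another probe set alone was called for 4, 3 and 8 genes, such as SLC5A10, a relative of the sodium-glucose transporters, with -1.35 in MSCs. The folate transporter SLC46A1 was called in opposite directions in chondrocytes against day 0 MSCs, at 0.72 for the probe set used and -0.70 for another. The deposited values do not show which of 2 probe sets measures a gene better.

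**Figure D5:**
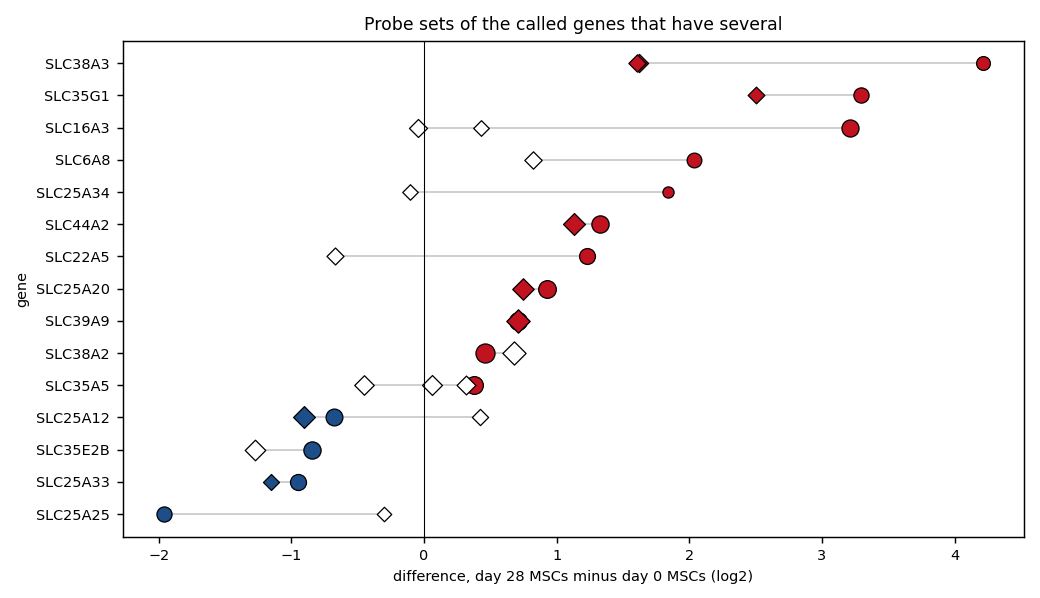
Difference of day 28 MSCs from day 0 MSCs on the log2 scale (horizontal axis) for each probe set of the 15 genes (vertical axis) that have several and were called. Circles are the probe sets used and diamonds the others, filled where called (red higher, blue lower) and larger with mean level. The probe sets of SLC39A9 and SLC44A2 nearly coincide, while those of SLC16A3 and SLC22A5 spread over 1.9 or more.

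Arrays within a group correlated from 0.978 to 0.990 over probe sets, and none was identical to another. The hybridisation control bioC averaged 8.80 on 2 arrays, chondrocyte array 3 and day 28 MSC array 3, and 11.66 on the other 7. These 2 arrays are also the only day 28 arrays of donor 3. Control transcripts gave a 3′ minus 5′ signal difference of 1.81 ± 0.19 in chondrocytes, 1.81 ± 0.20 in day 28 MSCs and 1.34 ± 0.23 in day 0 MSCs (SD, n = 3), so it moved with the same comparisons as the calls against day 0 MSCs. White blood cell markers, of which 9 were measured and 3 were dim, had 1 higher and 4 lower in day 28 than in day 0 MSCs, 1 and 1 in chondrocytes than in day 28 MSCs, and 2 and 4 in chondrocytes than in day 0 MSCs. The log2 of their summed unlogged signal, to which the brightest markers add most, was 8.82 to 9.14 in chondrocytes. It was 8.49 to 8.65 in day 28 MSCs and 9.09 to 9.68 in day 0 MSCs. Red blood cell markers had 0 of 5 called, and of 6 endothelial markers 5 were dim. TEK was higher in both day 28 groups than in day 0 MSCs, and the dim TIE1 was higher in chondrocytes than in day 28 MSCs (0.93, adjusted p = 0.0309) and than in day 0 MSCs (0.73, adjusted p = 0.0369). Of 8 marrow stroma markers, 0 were higher and 3 lower in MSCs over time, 1 (NT5E) was higher and 0 lower in chondrocytes than in day 28 MSCs, and 0 were higher and 2 lower in chondrocytes than in day 0 MSCs. Of 4 fat markers, 1 was higher and 1 lower in MSCs over time, 0 were called between the day 28 groups, and 1 was higher and 2 lower in chondrocytes than in day 0 MSCs. Of 4 bone markers, ALPL was higher in each day 28 group than in day 0 MSCs, and 0 were called between the day 28 groups. The part of RNA quality and of other cells in the results was not tested.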

How the data were processed

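Each of the 9 samples was hybridised to a single-colour bovine array. The deposited values are log2 levels made by the authors with RMA, per the submitters' processing notes, with a version not given in the sources used here. RMA corrects background, brings arrays to 1 distribution by quantile normalization and summarises each probe set, so a shift of most transcripts cannot be seen. Per the labels' protocols, cDNA was primed at poly(A) and amplified, which favours 3′ ends.

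From 24128 probe sets, 112 controls were left out. Platform symbols gave 13292 probe sets with 1 symbol, 86 with several and 10638 with none. A RefSeq table of ARS-UCD2.0 updated names and changed 0 member symbols. The 3 groups entered 1 linear model (limma 3.58.1 in R 4.3.3, functions lmFit and eBayes). Adjustment of p was by Benjamini-Hochberg, per comparison and over 24016 probe sets. The members, classes, lists and tests were chosen with earlier results of these data known. SLC4A1AP and SLC7A6OS were moved to their own class after the data were seen. Named genes were SLC2A1 and SLC39A14 and the called members of the 5 main classes. The 8 largest rises and falls per comparison and the smallest p of each other class were also named. Genes whose probe sets differed in call were given by count and examples. From the lists of partner genes some were named, not always those of smallest p in each comparison. Other named members were chosen after their values were seen.

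Labels give the donor of each array. Across probe sets, deviations from group means had correlations of 0.108 to 0.412 for 9 pairs of arrays from 1 donor in different groups, and of -0.303 to 0.152 for 18 pairs from different donors. The donor was added as a replicate block as an alternative. Other alternatives were 3 scalings between arrays, filters at the 25th and 50th percentile of mean signal, other ways to choose a probe set, trended and robust variance, 2 groups only, array weights, and leaving out each array or both arrays of low hybridisation controls.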

Additional observations from a re-analysis of the deposited data

How the results depend on the processing

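Over 21 alternatives, a call was counted as kept if it passed in every one that retained its gene. That held for 41 of 57 calls in MSCs over time and 10 of 29 between chondrocytes and day 28 MSCs. It also held for 39 of 60 between chondrocytes and day 0 MSCs. The filters on mean signal removed some called genes, so the calls of those genes faced fewer than 21 alternatives. Counts of called members stayed within 1.5 times of those reported in the comparisons with day 0 MSCs. Leaving out 1 array gave 49 to 57 calls in MSCs (28 to 32 higher, 19 to 28 lower) and 46 to 62 for chondrocytes against day 0 MSCs (26 to 36 higher, 19 to 26 lower). Between chondrocytes and day 28 MSCs it gave 16 to 32 calls, 8 to 16 higher and 8 to 16 lower, with 16, 16 and 18 of the reported 29 without chondrocyte array 1, 2 or 3. The higher count there also fell, to 11, without day 28 MSC array 2. Without both arrays of low hybridisation controls it was 17 calls, 8 higher. The cause was not tested, and fewer arrays were fitted.

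With the donor as a replicate block, 65, 30 and 62 members were called in the 3 comparisons, in the order of the report. Beside the calls named in the report, the block ended those of SLC35A5 in MSCs (adjusted p = 0.0583), SLC35A4 between the day 28 groups (adjusted p = 0.0577) and SLC6A11 in chondrocytes against day 0 MSCs (adjusted p = 0.0695). Directions turned in 5 cases with another choice of probe set: SLC35A5 to -0.45 in MSCs, SLC5A1 to 1.26 and 0.81 in chondrocytes against day 28 and day 0 MSCs, and SLC46A1 in chondrocytes against day 0 MSCs to -0.70 with the probe set of largest SD and -0.094 with the mean of probe sets. Centring on ribosomal protein genes shifted the overall probe set median by 0.17 between the day 28 groups and 0.20 for chondrocytes against day 0 MSCs, and centring on the array median shifted the last by -0.12. Members of low signal limit what could be seen: 47 were dim (mean level under the 25th percentile), and of these 4, 1 and 4 were called.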
